A study of Mus musculus with 68 samples.

Results

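The uterus of ovariectomized wild-type mice was measured 2 h and 24 h after insulin-like growth factor 1 (IGF1), and the arrays at 24 h were set directly against those at 2 h, with the mouse set as a blocking term. The members were the arrays whose title marks a wild type treated with IGF1, which gave 16 of the 68 arrays of the series, 7 at 2 h and 9 at 24 h. They came from 3 sets of mice on C57Bl6. The first was C57Bl6 wild types from a commercial breeder, with 2 arrays at 2 h and 3 at 24 h. The second was wild-type littermates of Ex3aERKO mice, which are null for Esr1, the gene of oestrogen receptor alpha, with 3 and 3 arrays. The third was wild-type littermates of ERaUtcKO mice, which carry floxed Esr1 alleles and Cre under the progesterone receptor gene (Esr1f/f;PgrCre+), with 2 and 3 arrays. For comparison, 8 wild-type vehicle arrays, 18 wild-type arrays after oestradiol (E2, 250 ng, at 2 h or 24 h) and 11 IGF1 arrays of the knockouts (5 of Ex3aERKO, 6 of ERaUtcKO) were used.

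All mice lacked ovaries, so the tissue received no ovarian steroid. IGF1 was given as 50 µg injected in 100 µl, or from an osmotic pump of 3 days loaded at 0.5 mg/ml, and the labels do not say which mouse had which. Route and time can therefore not be told apart. All vehicle arrays are from 24 h, and there is none from 2 h. A difference between the 2 h arrays and vehicle therefore mixes IGF1 with the time and with recent handling or injection. The change from 2 h to 24 h carries the same mixture. The share of each was not tested, so "above vehicle" and "below vehicle" at 2 h describe levels only. Groups were planned as 3 arrays, and where 2 remain the submitters had dropped an array that stood apart in a principal component analysis, which touches the 2 h IGF1 groups of the C57Bl6 set, the ERaUtcKO littermates and the Ex3aERKO mice and the vehicle group of the Ex3aERKO littermates. The labels do not give the age of the mice or say whether each array was a separate animal, so p-values measure the spread between these samples.

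IGF1 binds a receptor tyrosine kinase that works through the adaptors IRS1 and IRS2. It switches on the ERK cascade, which raises immediate-early transcription factor genes and then its own feedback inhibitors, and the PI3 kinase and AKT pathway, which holds FOXO transcription factors out of the nucleus and favours protein and ribosome synthesis. In the uterus IGF1 is made by stromal cells, is raised by oestrogen and drives proliferation of the epithelium.

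Values are log2 intensities as deposited, and a difference of 1 is a 2-fold change. "Rose" and "fell" stand for 24 h against 2 h unless another pair is named, and only for an adjusted p under 0.05 (limma, Benjamini-Hochberg over 30142 genes, two-sided). Of these genes 10640 were called (35.3%), 6045 of them higher at 24 h (20.1%) and 4595 lower (15.2%). The median difference over all genes was -0.03. At least 2-fold changes were called for 927 genes (3.08%), 572 higher (1.9%) and 355 lower (1.18%), and 922 of them moved the same way in every set. Esr1 (12.17 to 14.07 on the vehicle arrays) and Pgr, the progesterone receptor gene (13.81 to 15.23), were well above the antigenomic control probe sets, whose 95th percentile was 6.10. Levels differed between sets for many genes, so a range over all arrays of a time can overlap where the arrays within each set do not. Whole arrays differed too. The median of the tested genes was 6.93 to 7.02 on the C57Bl6 IGF1 arrays. It was 6.17 to 6.29 in the Ex3aERKO littermates and 6.625 to 6.71 in the ERaUtcKO littermates. The antigenomic median was at least 4.17 in C57Bl6 and at most 3.45 and 3.69 in the others. A higher level in C57Bl6 is therefore not read as a trait of that set. Over all genes, 1.47% had arrays of the 2 times that did not overlap over the 3 sets together, and 17.6% had arrays that did not overlap within each set.

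The largest falls and rises were taken as the 15 protein-coding genes of each sign that moved the same way in every set. The largest falls were those of Tnfrsf12a, Ccn1, Thbs1, Car3, Tas2r135, Nr4a1, Tas2r143, Egr1, Retn, Dusp6, Spry4, Zbtb16, Ier2, Vegfa and Plet1. The largest rises were those of Fbxo32, Igfbp5, Tnnt2, Klhl24, Mki67, H1f5, Sesn1, Top2a, Lum, Sesn3, H2ac10, Kif11, Col3a1, Fam214a and Crabp1. Of these 30 genes, chosen by their difference, 21 had no overlap between the times over the 3 sets together and 28 had none within each set. The exceptions within sets were Car3 and Tnnt2. Of the 15 falls, 7 did not differ from vehicle by the test at 24 h (46.7%, against 59.1% of all genes), while several of the rises ended above or below vehicle. Both comparisons with vehicle share its 8 arrays with each other and an IGF1 group with the direct comparison, so their values are given side by side only. Liver markers stood apart on vehicle arrays. Their mean level was 10.38 to 12.51 on the 3 C57Bl6 vehicle arrays and 7.70 to 9.77 on the 3 of the ERaUtcKO littermates, but 5.88 and 5.91 on the 2 of the Ex3aERKO littermates, against at most 7.97 after IGF1. Of the 6 liver markers, 5 were below vehicle at 2 h and 5 at 24 h (medians -1.23 and -1.45), Alb, the albumin gene, among them with a difference of -3.94 at 24 h, and the part of liver RNA in the comparisons with vehicle was not tested.

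**Figure D1:**
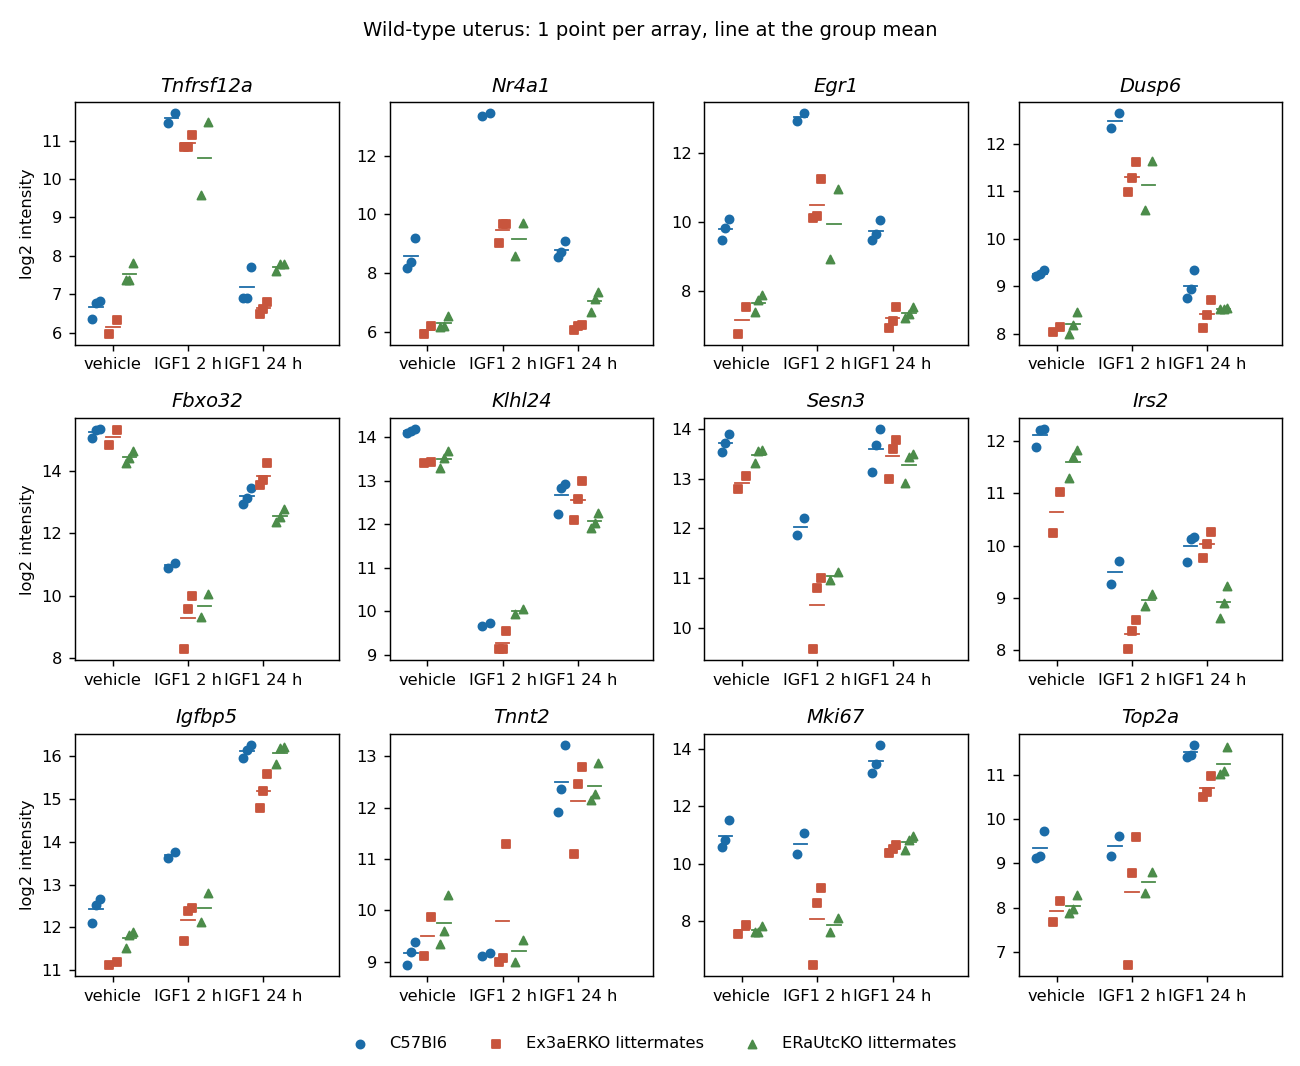
Log2 intensity (vertical axis) of 12 genes on each wild-type vehicle, IGF1 2 h and IGF1 24 h array, with the 3 mouse sets as symbols and a line at the mean of each set. Tnfrsf12a, Nr4a1, Egr1 and Dusp6 are high at 2 h alone, Fbxo32, Klhl24, Sesn3 and Irs2 are low at 2 h, and Igfbp5, Tnnt2, Mki67 and Top2a are highest at 24 h.

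Immediate-early transcription factor genes, which growth factors induce without new protein synthesis, fell from 2 h to 24 h in 22 of 25 measured cases, and none rose. Their median difference was -1.08, against -0.03 over all genes. At 2 h, 18 of the 25 had been above the 24 h vehicle and none below. In that comparison 35.9% of all genes were called, 16.9% higher and 19% lower. At 24 h, 2 were above vehicle and 3 below it, where 40.9% of all genes were called, 19.3% higher and 21.6% lower. Nr4a1, an orphan nuclear receptor gene, ran from 8.58 to 13.44 (median 9.68) on the 7 arrays at 2 h and from 6.07 to 9.09 (median 7.12) on the 9 at 24 h, with 5.95 to 9.22 (median 6.37) under vehicle. The C57Bl6 arrays stood highest at each time, and within each set the times did not overlap. Nr4a1 fell by 3.36 ± 0.46 (SE, adjusted p = 9.39e-08), after a difference of 3.77 ± 0.47 from vehicle at 2 h, and at 24 h it stood 0.41 ± 0.44 from vehicle (adjusted p = 0.473). Egr1, a zinc finger factor, had 8.93 to 13.13 (median 10.96) at 2 h against 6.93 to 10.04 (median 7.52) at 24 h. It fell by 3.11 ± 0.29 (adjusted p = 2.96e-11). Ier2, a small nuclear protein gene, had 8.03 to 11.17 (median 9.09) at 2 h against 5.88 to 8.01 (median 6.82) at 24 h and fell by 2.59 ± 0.22 (adjusted p = 3.18e-12). Both returned to within 0.11 of vehicle by their estimates, -0.11 for Egr1 and 0.08 for Ier2.

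Serum response factor binds the CArG box, the classical element of immediate-early promoters. The window searched was 250 bases before to 50 after the start of transcription, on both strands, in the RefSeq promoters (GRCm38.p6) that matched 15432 of 19043 protein-coding genes. For 2528 genes with several promoters a match in any was counted. A CArG box was found for 3 of the 19 immediate-early genes with a promoter (15.8%), against 1.67% of all genes. These 3 promoters are shown because they join the motif to genes that are high at 2 h, each as 100 bases ending at the base before the start, 5′ to 3′ on the gene's strand, with the CArG boxes in capitals. Egr2, a relative of Egr1, is at chr10:67537466-67537565 (plus strand), Srf, which encodes serum response factor itself, at chr17:46556163-46556262 (minus strand), and Zfp36, the gene of the mRNA-destabilising protein tristetraprolin, at chr7:28379229-28379328 (minus strand).
Egr2: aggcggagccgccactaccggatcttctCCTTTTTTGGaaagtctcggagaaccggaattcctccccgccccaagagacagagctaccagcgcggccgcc
Srf: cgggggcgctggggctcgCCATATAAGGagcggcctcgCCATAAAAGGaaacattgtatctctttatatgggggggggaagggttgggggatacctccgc
Zfp36: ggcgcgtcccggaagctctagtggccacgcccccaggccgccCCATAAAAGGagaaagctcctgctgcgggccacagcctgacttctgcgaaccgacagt
The first base of the box lay 72 bases before the start in Egr2 and 58 in Zfp36, and Srf had a pair at 82 and 62. Srf fell by 1.87 ± 0.18 (adjusted p = 4.59e-11), from 11.20 to 13.23 (median 11.67) at 2 h to 8.89 to 11.70 (median 10.35) at 24 h, and was still 1.00 ± 0.17 above vehicle (adjusted p = 1.21e-05). Zfp36 fell by 1.98 ± 0.22 and Egr2 by 1.73 ± 0.13, and neither differed from vehicle by the test at 24 h. A match is a description of the letters, and binding was not measured.

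Feedback inhibitors of ERK signalling and ETS targets fell in 11 of 16 cases and rose in 1 (median -0.63). Against vehicle, 10 were higher and 1 lower at 2 h, and 1 was higher and 5 lower at 24 h. Dusp6, a phosphatase that inactivates ERK, ran from 10.61 to 12.64 (median 11.61) at 2 h and from 8.13 to 9.35 (median 8.54) at 24 h, with 8.01 to 9.33 (median 8.32) under vehicle. No array at 24 h reached any at 2 h, and Dusp6 fell by 2.98 ± 0.16 (adjusted p = 7.12e-18). Spry4, a Sprouty inhibitor of receptor tyrosine kinase signalling, fell by 2.88 ± 0.22 (adjusted p = 1.38e-13), from 9.38 to 11.86 (median 10.15) to 6.82 to 8.62 (median 7.65). Their endpoints differed, since Dusp6 stood 0.11 ± 0.15 from vehicle at 24 h (adjusted p = 0.578) and Spry4 was still 0.84 ± 0.21 above it (adjusted p = 0.00149). Errfi1, an inhibitor of the EGF receptor, fell by 2.17 ± 0.13, while Dusp10, a phosphatase that acts mainly on JNK and p38, rose by 0.53 ± 0.10.

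Genes of the actin cytoskeleton and targets of serum response factor or YAP fell in 10 of 17 cases and rose in 3 (median -0.24), and they held the 3 largest falls of all. Tnfrsf12a, the receptor of the cytokine TWEAK, ran from 9.59 to 11.71 (median 11.15) at 2 h and from 6.48 to 7.78 (median 6.92) at 24 h, with 5.98 to 7.80 (median 6.81) under vehicle. All 7 arrays at 2 h lay above all arrays of both other groups. It fell by 3.90 ± 0.25 (adjusted p = 2.11e-15). Ccn1, a matricellular signalling protein gene, had 10.51 to 13.94 (median 11.90) at 2 h against 7.24 to 10.24 (median 8.15) at 24 h and fell by 3.74 ± 0.40 (adjusted p = 6e-10). Thbs1, which encodes thrombospondin 1, had 12.35 to 15.93 (median 13.62) at 2 h against 9.23 to 12.78 (median 9.86) at 24 h and fell by 3.66 ± 0.30 (adjusted p = 5.95e-13). The last of these crossed vehicle, with differences from it of 2.39 ± 0.31 at 2 h and -1.26 ± 0.29 at 24 h (adjusted p = 0.000445). In the other direction Flna, an actin crosslinker gene, rose by 0.67 ± 0.14, Cfl1, which encodes cofilin, by 0.59 ± 0.16 and Tuba1c, a tubulin gene, by 0.33 ± 0.08.

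Among the remaining large falls, Tas2r135 and Tas2r143, bitter taste receptor genes that both lie on chromosome 6, also went from above to below vehicle. Tas2r135 had 9.33 to 10.06 (median 9.63) at 2 h, 5.53 to 6.97 (median 6.11) at 24 h and 6.70 to 8.05 (median 7.48) under vehicle. Its groups at 2 h and 24 h were far apart, and it fell by 3.41 ± 0.20 (adjusted p = 1.08e-16), to -1.22 ± 0.19 against vehicle, where its median was near the antigenomic 95th percentile. Tas2r143 fell by 3.27 ± 0.16 (adjusted p = 1.5e-18) and ended at -1.08 ± 0.15 against vehicle. Plet1, a surface protein gene of epithelial progenitors, had 14.90 to 16.61 (median 15.81) at 2 h against 12.48 to 13.79 (median 13.39) at 24 h and fell by 2.48 ± 0.17 (adjusted p = 4.27e-15), ending at -0.64 ± 0.16 against vehicle.

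Vegfa, the vascular endothelial growth factor gene, ran from 11.78 to 13.95 (median 12.25) at 2 h and from 8.85 to 11.65 (median 10.29) at 24 h, and fell by 2.50 ± 0.15 (adjusted p = 4.39e-16) to 0.04 ± 0.15 from vehicle. Of 17 genes of hypoxia, glycolysis and vessel growth, 8 fell and 4 rose (median -0.36). Pfkfb3, which makes the allosteric activator of glycolysis, fell by 1.74 ± 0.23 and Hk2, a hexokinase gene, by 1.20 ± 0.16. Pgk1, a glycolytic enzyme gene, rose by 0.72 ± 0.16 and Angpt2, an antagonist of the endothelial receptor TIE2, by 0.48 ± 0.10. Glucocorticoid-responsive genes fell in 11 of 17 cases and rose in 1 (median -0.56), 11 having been above vehicle and 1 below at 2 h, and 4 above and 6 below at 24 h. Zbtb16, a transcriptional repressor gene, had 8.30 to 10.92 (median 9.68) at 2 h against 6.88 to 7.44 (median 7.13) at 24 h and fell by 2.59 ± 0.25 (adjusted p = 4.56e-11). Several members also stand in other lists, among them Errfi1, Cdkn1a and Pdk4. Pdk4, an inhibitor of pyruvate dehydrogenase, was the member that rose, by 1.12 ± 0.35.

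**Figure D2:**
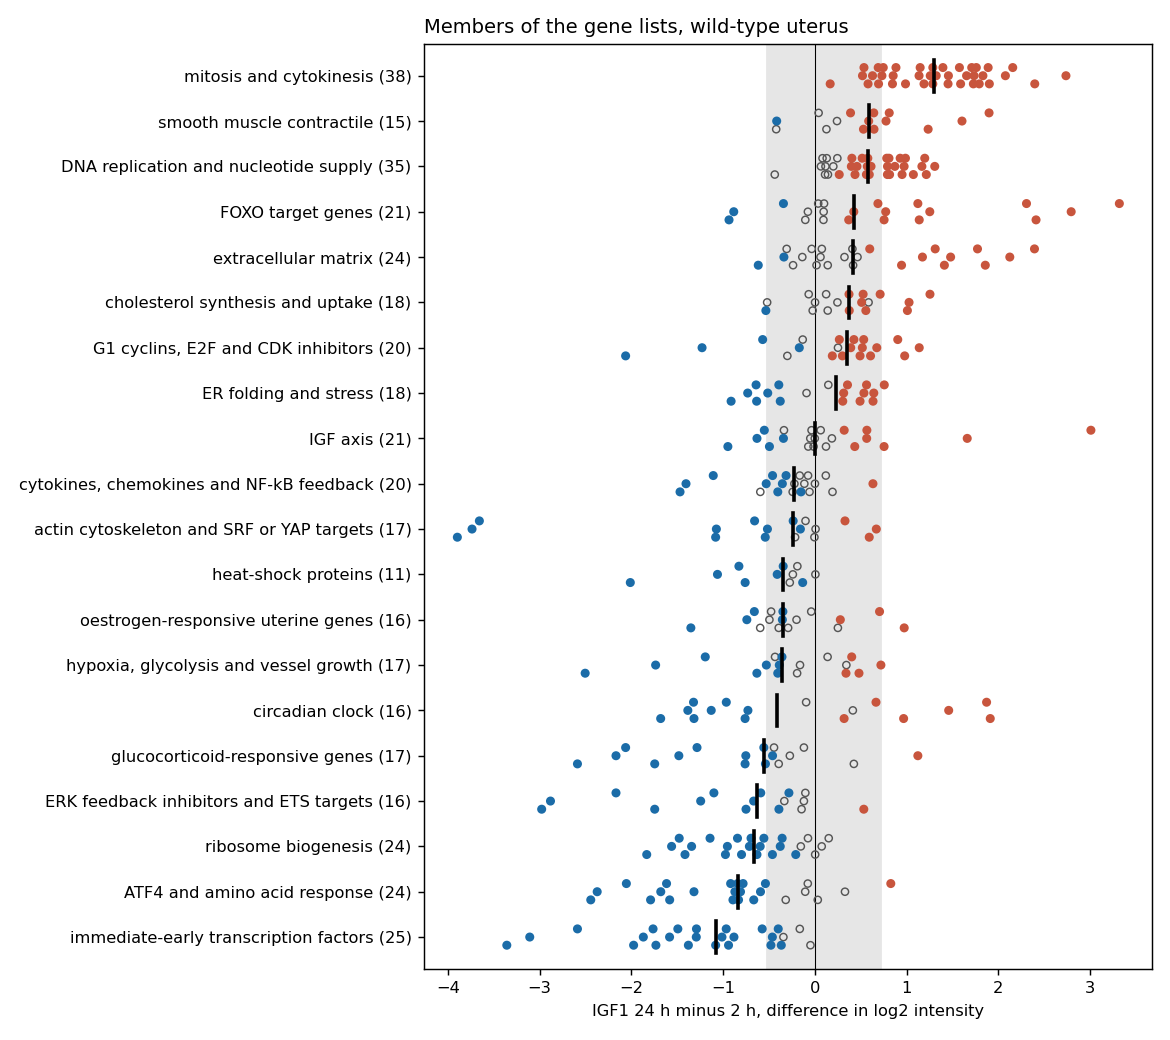
Difference in log2 intensity between IGF1 at 24 h and 2 h (horizontal axis) of every measured member of 20 gene lists, with the number measured in brackets, filled where called and open where not, and a bar at each list's median. The grey band spans the 5th to 95th percentile of all 30142 genes, -0.53 to 0.72; 22 of the 25 immediate-early genes are filled and lie to the left of 0, and all 38 mitosis genes are filled and lie to the right.

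Genes that serve protein synthesis were high at 2 h and came down by different amounts. The amino acid response driven by the transcription factor ATF4 fell in 18 of 24 cases and rose in 1 (median -0.84). At 2 h, 23 of the 24 were above vehicle and 1 below, and at 24 h 12 were above and 3 below. Chac1, a glutathione-degrading enzyme gene, fell by 2.44 ± 0.24 (adjusted p = 7.9e-11) and stood at -0.06 ± 0.23 against vehicle at 24 h, a difference that did not pass the test. Slc7a1, a transporter of cationic amino acids, fell by 2.37 ± 0.18 and Mthfd2, a mitochondrial folate enzyme gene, by 2.06 ± 0.14. Mthfd2 was still 0.81 ± 0.13 above vehicle at 24 h. Aldh1l2, another mitochondrial folate enzyme gene, was the member that rose, by 0.83 ± 0.16.

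Ribosome biogenesis genes fell in 19 of 24 cases and none rose (median -0.66), yet 17 of them were still above vehicle at 24 h, after 24 of 24 at 2 h. Ddx21, an RNA helicase of the nucleolus, fell by 1.83 ± 0.19 (adjusted p = 2.98e-10), from 2.85 ± 0.20 to 1.01 ± 0.18 above vehicle. Nolc1, a nucleolar chaperone gene, fell by 1.56 ± 0.14 and Wdr43, a subunit of the small-subunit processome, by 1.48 ± 0.12. Heat-shock protein genes followed with 7 of 11 falling and none rising (median -0.35), and all 11 were above vehicle at both times. Hsph1 fell by 2.01 ± 0.22, Hspa1a by 1.06 ± 0.13 and Hsp90aa1 by 0.83 ± 0.12. Hspa1a has a near-identical neighbour, so its signal is uncertain between the copies.

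FOXO target genes, which rise when PI3 kinase and AKT signalling is low, moved the opposite way. Of 21 measured, 18 were below vehicle at 2 h, 18 at 24 h and 16 at both times, and none was above it at either. From 2 h to 24 h 12 rose and 3 fell, with a median of 0.42, and the median against vehicle went from -1.09 to -0.67. Fbxo32, the ubiquitin ligase atrogin 1, had 14.26 to 15.34 (median 14.95) under vehicle, 8.29 to 11.05 (median 9.999) at 2 h and 12.37 to 14.26 (median 13.15) at 24 h. The IGF1 times did not overlap, and the arrays at 24 h lay between the others. It stood at -5.02 ± 0.24 against vehicle at 2 h, rose by 3.32 ± 0.24 (adjusted p = 1.99e-14) and ended at -1.71 ± 0.23 against vehicle (adjusted p = 8.59e-08).

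Klhl24, a ubiquitin ligase adaptor gene, had 9.12 to 10.05 (median 9.66) at 2 h against 11.92 to 13.00 (median 12.26) at 24 h and rose by 2.79 ± 0.16 (adjusted p = 1.38e-16), from -4.04 ± 0.17 to -1.25 ± 0.16 against vehicle. The sestrins, stress-induced inhibitors of the growth kinase mTORC1, rose too. Sesn1 had 8.35 to 9.73 (median 9.13) at 2 h against 11.06 to 12.20 (median 11.49) at 24 h and rose by 2.41 ± 0.13 (adjusted p = 3.45e-17), ending at -0.52 ± 0.13 against vehicle. Sesn3 had 9.57 to 12.20 (median 11.01) at 2 h against 12.90 to 13.99 (median 13.49) at 24 h and rose by 2.31 ± 0.18 (adjusted p = 4.08e-13). It ended 0.07 ± 0.18 above vehicle, which did not pass the test (adjusted p = 0.79). Fam214a followed the same course, at -3.31 ± 0.18 against vehicle at 2 h, 2.12 ± 0.17 higher at 24 h than at 2 h and at -1.19 ± 0.17 against vehicle at 24 h. In contrast, Gadd45a, a stress sensor gene, fell by 0.94 ± 0.13, Bcl6, a transcriptional repressor gene, by 0.88 ± 0.21 and Igf1r by 0.34 ± 0.11.

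A forkhead site (GTAAACA or ATAAACA) was found in the promoter window of 4 of 18 FOXO target genes (22.2%), against 7.83% of all genes. Txnip, an inhibitor of glucose uptake and of thioredoxin, is shown as an example with a site at the first base 121 bases before the start, in 100 bases on the plus strand at chr3:96557807-96557906 (GRCm38.p6), with the site in capitals.
Txnip: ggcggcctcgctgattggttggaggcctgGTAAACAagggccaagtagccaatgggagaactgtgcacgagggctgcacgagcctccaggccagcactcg
The difference of Txnip from vehicle was -1.44 ± 0.27 at 2 h and -1.35 ± 0.25 at 24 h, and the direct difference of 0.09 ± 0.26 was not called (adjusted p = 0.825). It had 13.96 to 16.32 (median 15.14) at 2 h and 14.42 to 16.67 (median 15.47) at 24 h. The sets went different ways, with -0.90 in C57Bl6, 1.10 in the Ex3aERKO littermates and 0.03 in the ERaUtcKO littermates, and these changes differed (adjusted p = 0.0384, limma F test). With each set fitted alone, the C57Bl6 fall was called (adjusted p = 0.000347).

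In the IGF axis itself, 7 of 21 genes rose and 5 fell (median 0.00). Igfbp5, a secreted IGF binding protein gene, had 11.11 to 12.66 (median 11.86) under vehicle, 11.69 to 13.75 (median 12.46) at 2 h and 14.79 to 16.27 (median 15.97) at 24 h. Every array at 24 h lay above every other, and it rose by 3.01 ± 0.20 (adjusted p = 2.54e-15), to 4.03 ± 0.19 above vehicle. Stc1, a secreted glycoprotein gene, rose by 1.66 ± 0.22. Pappa, a protease that frees IGFs from their binding proteins, fell by 0.95 ± 0.12 and Igfbp6 by 0.63 ± 0.12.

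The receptor and its adaptors moved less. Igf1r had 10.66 to 11.60 (median 10.83) at 2 h and 10.27 to 11.23 (median 10.63) at 24 h, with overlapping groups, and fell by 0.34 ± 0.11 (adjusted p = 0.00995), from -0.93 ± 0.11 to -1.27 ± 0.10 against vehicle, though its change was 0.03 in the Ex3aERKO littermates. Irs2 had 8.01 to 9.71 (median 8.85) at 2 h and 8.62 to 10.27 (median 9.76) at 24 h, against 10.24 to 12.23 (median 11.76) under vehicle, and rose by 0.75 ± 0.20 (adjusted p = 0.00217), still at -1.87 ± 0.19 against vehicle. The rise was 1.70 in the Ex3aERKO littermates (adjusted p = 1.67e-07), while the changes of 0.50 in C57Bl6 and -0.04 in the ERaUtcKO littermates were not called, and the changes differed between the sets (adjusted p = 0.00422). Irs1 (-0.05 ± 0.15, adjusted p = 0.831) and Igf1 (-0.00 ± 0.13, adjusted p = 0.994) did not differ between the times by the test, and Igf1 had 9.62 to 10.91 (median 10.52) at 2 h and 9.97 to 11.02 (median 10.65) at 24 h.

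**Figure D3:**
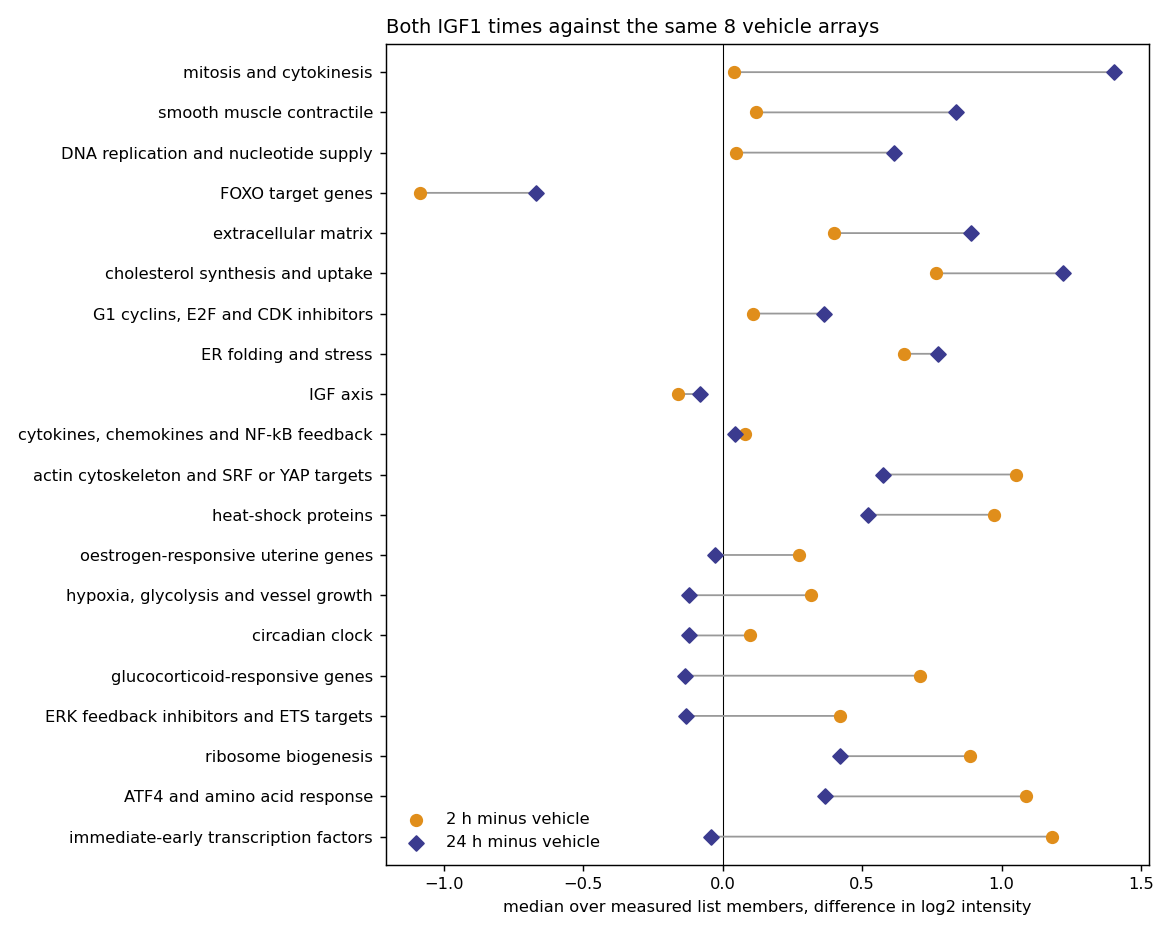
Median over the measured members of each of 20 gene lists (vertical axis) of the difference in log2 intensity from vehicle (horizontal axis), with circles for IGF1 at 2 h and diamonds for 24 h; both share the 8 vehicle arrays. FOXO target genes are the list furthest left at both times, and the mitosis genes go from 0.04 at 2 h to 1.40 at 24 h.

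Genes of mitosis and cytokinesis all rose, 38 of 38, with a median of 1.30. At 2 h none was above vehicle and 2 were below, and at 24 h 37 were above and none below. Mki67, the proliferation antigen gene, ran from 6.46 to 11.08 (median 8.64) at 2 h and from 10.39 to 14.14 (median 10.83) at 24 h, with 7.55 to 11.52 (median 7.84) under vehicle. The C57Bl6 arrays stood above the others at each time, and within each set no array at 2 h reached one at 24 h. Mki67 rose by 2.74 ± 0.28 (adjusted p = 2.82e-10). Top2a, the DNA topoisomerase of dividing cells, had 6.69 to 9.63 (median 8.81) at 2 h against 10.51 to 11.69 (median 11.09) at 24 h and rose by 2.40 ± 0.28 (adjusted p = 4e-09). Kif11, a spindle motor gene, had 5.93 to 8.83 (median 7.33) at 2 h against 8.52 to 11.10 (median 9.31) at 24 h and rose by 2.16 ± 0.21 (adjusted p = 3.75e-11). The histone genes H1f5 and H2ac10 rose by 2.73 ± 0.36 and 2.22 ± 0.20, and as members of families of near-identical copies their identity is uncertain. In bulk tissue, fewer cells of a type and less RNA per cell cannot be told apart, so a level here is that of the whole uterus.

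Many mitotic promoters pair CCAAT boxes, bound by NF-Y, with the cell cycle genes homology region (CHR, searched as TTTGAA or TTCGAA), bound by the DREAM and MuvB complexes. A CHR element was found for 25 of the 32 mitosis genes with a promoter (78.1%), against 19.5% of all genes, and a CCAAT box (CCAAT) for 24 (75%), against 42%. Over the other lists the CCAAT share ran from 20% (cytokines) to 100% (cholesterol), with 82.4% for endoplasmic reticulum folding and 78.6% for clock genes. These 4 promoters are shown because each holds both motifs, in capitals, within 100 bases ending at the base before the start. Top2a is at chr11:99024190-99024289 (minus strand), Kif11 at chr19:37376282-37376381 (plus strand), Ube2c, the ubiquitin-conjugating enzyme of the anaphase-promoting complex, at chr2:164769829-164769928 (plus strand), and Cdk1, the mitotic kinase gene, at chr10:69352913-69353012 (minus strand), all GRCm38.p6.
Top2a: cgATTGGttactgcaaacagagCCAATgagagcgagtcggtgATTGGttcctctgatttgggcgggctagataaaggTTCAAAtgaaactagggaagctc
Kif11: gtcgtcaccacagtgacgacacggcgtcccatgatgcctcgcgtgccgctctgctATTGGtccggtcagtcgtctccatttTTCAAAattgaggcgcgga
Ube2c: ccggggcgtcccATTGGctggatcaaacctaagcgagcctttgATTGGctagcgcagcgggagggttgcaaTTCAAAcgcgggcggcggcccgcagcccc
Cdk1: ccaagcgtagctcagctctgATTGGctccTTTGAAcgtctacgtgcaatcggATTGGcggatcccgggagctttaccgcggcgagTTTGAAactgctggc
ATTGG and TTCAAA are the motifs read on the other strand. The CHR element nearest the start began 23 bases before it in Top2a, 19 in Kif11, 29 in Ube2c and 15 in Cdk1. Ube2c had 6.84 to 9.07 (median 8.61) at 2 h against 9.48 to 10.51 (median 10.08) at 24 h and rose by 1.71 ± 0.32 (adjusted p = 2.68e-05). Cdk1 rose by 1.26 ± 0.16 (adjusted p = 4.3e-08), with 5.81 to 7.37 (median 6.93) at 2 h against 7.67 to 8.55 (median 8.02) at 24 h.

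Of 35 genes of DNA replication and nucleotide supply 26 rose and none fell (median 0.58). At 2 h 6 were above vehicle and 3 below, and at 24 h 30 were above and none below. Rrm2 and Rrm1, the subunits of ribonucleotide reductase, rose by 1.31 ± 0.13 and 1.21 ± 0.13, and Mcm3, of the replicative helicase, by 1.20 ± 0.15. An E2F site (TTTCCCGC, TTTGGCGC, TTTCGCGC or TTTGCCGC) was found for 11 of 28 of these genes with a promoter (39.3%) and 6 of 16 genes of the G1 list (37.5%), against 3.38% of all genes. Mcm6, another helicase subunit, is shown with 3 sites in capitals, a pair of which overlap on opposite strands, in 100 bases on the minus strand at chr1:128359736-128359835 (GRCm38.p6).
Mcm6: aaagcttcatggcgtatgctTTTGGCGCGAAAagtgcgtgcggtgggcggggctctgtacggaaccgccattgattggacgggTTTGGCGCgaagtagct
The sites began 110, 106 and 47 bases before the start. Mcm6 had 8.45 to 10.10 (median 9.20) at 2 h against 9.60 to 10.92 (median 10.69) at 24 h, without overlap within a set, and rose by 1.17 ± 0.17 (adjusted p = 6.11e-07).

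Regulators of the G1 phase split, with 13 of 20 rising and 4 falling (median 0.34). Cdkn1a, the CDK inhibitor p21, fell by 2.06 ± 0.25, Ccnd2, which encodes cyclin D2, by 1.23 ± 0.15 and Cdc25a, a CDK-activating phosphatase gene, by 0.57 ± 0.10. Cdkn1b, the CDK inhibitor p27 and itself a FOXO target, rose by 1.14 ± 0.12, with differences from vehicle of -1.61 ± 0.12 at 2 h and -0.47 ± 0.12 at 24 h. E2f8, a late repressor of the E2F family, rose by 0.98 ± 0.11 and Rb1, the retinoblastoma gene, by 0.90 ± 0.20. Ccnd1 had no probe set of its own.

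Structural genes made up another part of the rise. Of 24 extracellular matrix genes, 10 rose and 2 fell (median 0.41), with 12 above vehicle and 6 below at 2 h, and 19 above and 3 below at 24 h. Lum, the proteoglycan lumican, had 12.68 to 14.83 (median 14.48) at 2 h and 16.01 to 17.45 (median 16.50) at 24 h, with 14.94 to 15.61 (median 15.10) under vehicle. The vehicle arrays lay between the IGF1 times, and Lum rose by 2.39 ± 0.21 (adjusted p = 4.61e-12). Col3a1, of type III collagen, had 9.24 to 13.05 (median 10.39) at 2 h against 11.82 to 15.18 (median 12.64) at 24 h and rose by 2.12 ± 0.20 (adjusted p = 1.91e-11). Col1a2, of type I collagen, rose by 1.86 ± 0.15, while Eln, the elastin gene, fell by 0.62 ± 0.11 and Dcn, the proteoglycan decorin, by 0.34 ± 0.08.

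Of 15 smooth muscle contractile genes 10 rose and 1 fell (median 0.59). Actg2, the enteric smooth muscle actin, rose by 1.90 ± 0.17 (adjusted p = 6.73e-12), Myl9, a myosin light chain gene, by 1.60 ± 0.22 and Myh11, smooth muscle myosin heavy chain, by 1.23 ± 0.12. Smtn, which encodes smoothelin, fell by 0.42 ± 0.12, with a change of 0.09 in the ERaUtcKO littermates. Tnnt2, the cardiac troponin T gene, had 8.99 to 11.30 (median 9.12) at 2 h and 11.10 to 13.21 (median 12.36) at 24 h, with 8.93 to 10.31 (median 9.37) under vehicle. The groups overlapped through 1 high array at 2 h and 1 low array at 24 h, both of the Ex3aERKO littermates, and Tnnt2 rose by 2.91 ± 0.26 (adjusted p = 5.4e-12). Crabp1, a retinoic acid binding protein gene, had 6.33 to 8.16 (median 7.03) at 2 h against 8.55 to 10.11 (median 9.34) at 24 h, without overlap, and rose by 2.12 ± 0.28 (adjusted p = 5.91e-08).

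Of 18 genes of cholesterol synthesis and uptake 9 rose and 1 fell (median 0.37). They were above vehicle in 15 cases at 2 h and in all 18 at 24 h. Fdps, which makes farnesyl diphosphate, rose by 1.25 ± 0.28, Mvk, mevalonate kinase, by 1.03 ± 0.13 and Nsdhl, a sterol dehydrogenase gene, by 1.01 ± 0.16. Insig1, a brake on the pathway, fell by 0.53 ± 0.21, with a change of 0.07 in the ERaUtcKO littermates. Idi1, an isoprenoid isomerase gene, was 2.42 ± 0.25 above vehicle at 2 h and 3.00 ± 0.23 at 24 h, and the direct difference of 0.58 ± 0.24 was not called (adjusted p = 0.0578). All 14 genes of the list with a promoter held a CCAAT box (100%, against 42% of all genes). Genes of folding and stress in the endoplasmic reticulum went both ways, 9 of 18 rising and 7 falling (median 0.22). Creld2, Hspa5 and Hyou1, chaperones of the unfolded protein response, fell by 0.91 ± 0.14, 0.73 ± 0.15 and 0.64 ± 0.13, whereas Sec61b, of the translocation channel, rose by 0.76 ± 0.15, the chaperone gene Dnajb9 by 0.64 ± 0.10 and the disulfide isomerase gene Pdia3 by 0.63 ± 0.12.

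Clock genes fell in 8 of 16 cases and rose in 6 (median -0.41). Arntl, a core activator of the clock, fell by 1.68 ± 0.24, Nfil3, a repressor, by 1.39 ± 0.11 and Npas2, a partner of Arntl, by 1.32 ± 0.13. The fall of Arntl was 2.21 in C57Bl6, 2.13 in the Ex3aERKO littermates and 0.52 in the ERaUtcKO littermates, and these differed (adjusted p = 2.12e-05, limma F test). Dbp, Per3 and Nr1d1, output and repressor genes driven by that activator, rose by 1.91 ± 0.15, 1.87 ± 0.19 and 1.46 ± 0.17. Against the 24 h vehicle, 7 clock genes were higher and 6 lower at 2 h, and 1 was higher and 4 lower at 24 h. The labels used here name no time of day of collection, and its part in the result was not tested. Of 20 cytokine, chemokine and NF-kB feedback genes, 9 fell and 1 rose (median -0.23). The chemokine genes Cxcl14, Ccl2 and Cxcl10 fell by 1.47 ± 0.21, 1.41 ± 0.24 and 1.11 ± 0.14, and Cxcl12 rose by 0.63 ± 0.13.

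Oestrogen-responsive uterine genes fell in 5 of 16 cases and rose in 3 (median -0.35), where 15.2% of all genes fell and 20.1% rose. Wnt4, a signal of stromal differentiation, fell by 1.35 ± 0.36, Pgf, placental growth factor, by 0.74 ± 0.11 and Gadd45g by 0.66 ± 0.22. The change of Wnt4 was -2.79 in C57Bl6, -0.80 in the Ex3aERKO littermates and -0.58 in the ERaUtcKO littermates (adjusted p = 4.68e-06, limma F test). Sox4, a transcription factor gene, rose by 0.97 ± 0.11, Muc1, an apical mucin of the epithelium, by 0.70 ± 0.15 and Esr1 by 0.28 ± 0.09 (adjusted p = 0.0115). Greb1, a direct target of the receptor, had 6.29 to 7.53 (median 7.30) at 2 h and 6.22 to 7.47 (median 6.72) at 24 h, overlapping groups, and fell by 0.35 ± 0.11 (adjusted p = 0.011). Pgr did not differ between the times by the test (0.25 ± 0.12, adjusted p = 0.115).

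Markers of cell types were read in the same way, beside 20.1% of all genes called higher and 15.2% lower. A count near these shares is not read as a change of that cell type. Of 10 smooth muscle markers 6 rose and 1 fell, of 9 stromal markers 3 rose and 2 fell, and of 11 epithelial markers 2 rose and 3 fell. The epithelial markers that rose were Krt18 (0.75 ± 0.16) and Epcam (0.67 ± 0.11), and those that fell were Cldn3 (-0.98 ± 0.19), Wnt7a (-0.49 ± 0.15, but 0.30 in the ERaUtcKO littermates) and Krt19 (-0.37 ± 0.14). Of 10 macrophage markers 4 rose and none fell, Mrc1 by 1.26 ± 0.14, and of 10 endothelial markers 4 rose and 1 fell, Plvap by 1.01 ± 0.19 and Emcn by 0.97 ± 0.08. Mesothelial markers rose in 2 of 5 cases, T and NK cell and skeletal muscle markers in 1 of 10 and 1 of 7, and 1 neutrophil marker of 9 and 1 liver marker of 6 fell. No eosinophil, mast cell or B cell marker was called, nor the 1 red blood cell gene measured.

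Adipocyte markers fell in 6 of 7 cases (median -1.81). Their mean level ran from 7.67 to 11.21 (median 7.83) at 2 h and from 6.68 to 8.33 (median 6.98) at 24 h, against 6.90 to 9.48 (median 7.89) under vehicle, and the groups overlapped. A pair of arrays at 2 h stood apart, replicate 2 of the Ex3aERKO littermates (11.21) and replicate 1 of the ERaUtcKO littermates (10.09), where the other 5 had 7.67 to 8.42. The list's median was -0.95 in C57Bl6, -1.67 in the Ex3aERKO littermates and -2.51 in the ERaUtcKO littermates. Among the largest falls, Retn, the adipokine resistin, had 8.51 to 14.41 (median 9.60) at 2 h against 6.87 to 8.28 (median 7.32) at 24 h and fell by 3.09 ± 0.72 (adjusted p = 0.000593). Car3, a carbonic anhydrase gene abundant in fat, had 10.86 to 16.09 (median 12.33) against 7.55 to 12.48 (median 9.21) and fell by 3.49 ± 0.82 (adjusted p = 0.000677). Adipoq, the adiponectin gene, fell by 1.98 ± 0.51 and Cidec, a lipid droplet protein gene, by 2.16 ± 0.66. Both alternatives that follow were chosen after seeing the data. Without the 2 arrays that stood apart, 2 of the 7 markers were called lower (median -0.91). Retn (-1.86, adjusted p = 0.0266) and Car3 (-2.43, adjusted p = 0.0230) were still called, and Adipoq (-1.21, adjusted p = 0.0625) and Cidec (-1.18, adjusted p = 0.175) were not. Over all genes 9595 were then called in place of 10640, 9146 of them shared. With the mean adipocyte marker level of each array as a covariate, in which all of these but Car3 take part, 2 of the 7 markers were called lower. The difference became -0.67 for Retn, -0.80 for Car3, -0.25 for Adipoq (adjusted p = 0.0631) and 0.05 for Cidec (adjusted p = 0.846), and 9302 genes were called, 8828 of them shared.

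The 3 sets were also read apart. Fitted with a mean for every group, the difference between the times was called higher for 3334 genes and lower for 2556 in the C57Bl6 set alone (11.1% and 8.48%). The counts were 4898 and 3862 in the Ex3aERKO littermates (16.2% and 12.8%) and 4064 and 3030 in the ERaUtcKO littermates (13.5% and 10.1%). A difference between the sets in the size of the change was called for 957 genes (3.17%, F test). The mitosis list had medians of 1.55, 1.21 and 1.40 in the C57Bl6, Ex3aERKO littermate and ERaUtcKO littermate sets, and the immediate-early list -1.23, -1.32 and -0.77. The cholesterol list had medians of 0.53, -0.18 and 0.99, so its sign differed in the Ex3aERKO littermates. Fbxo32 rose by 2.21, 4.56 and 2.88 in the 3 sets, and these rises differed (adjusted p = 0.00505).

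The change from 2 h to 24 h was then set against that after E2, from other arrays of the same model. The difference between the hormones was called for 7911 genes (26.2%), with IGF1 above E2 in 3243 (10.8%) and below in 4668 (15.5%). Among the genes with the largest difference, 6 rose with E2 and were not called with IGF1. Sprr2f, a cornified envelope protein gene, ran from 7.27 to 10.26 (median 8.66) at 2 h of E2 and from 14.12 to 18.89 (median 17.56) at 24 h, against 7.22 to 10.51 (median 7.73) and 7.01 to 9.47 (median 7.76) after IGF1. The E2 times lay far apart and the IGF1 times overlapped, and the changes differed by -8.47 ± 0.60 (adjusted p = 1.7e-14). The same direction held for Sprr2b (-7.23 ± 0.50), Sprr1a (-7.17 ± 0.48), Adgrg7, an adhesion receptor gene (-5.77 ± 0.40), Car2, carbonic anhydrase 2 (-5.38 ± 0.19), and Ltf, which encodes lactotransferrin (-4.74 ± 0.45).

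At the other end stood genes that were high at 2 h of E2 and had come down by 24 h. Pgf had 11.78 to 14.41 (median 12.65) at 2 h of E2 and 5.63 to 7.80 (median 6.39) at 24 h, against 6.06 to 7.99 (median 7.21) and 5.38 to 7.51 (median 6.26) after IGF1, and the changes differed by 5.52 ± 0.16 (adjusted p = 4.7e-27). Those of Pdk4 (5.52 ± 0.48), Gadd45g (5.08 ± 0.31), Irak3, a brake on interleukin 1 signalling (5.04 ± 0.16), Dennd2a (4.79 ± 0.09) and Mad2l1, a spindle checkpoint gene (4.76 ± 0.22), differed in the same direction. Mad2l1 is the mitosis gene that went its own way. After E2 it had 14.94 to 15.81 (median 15.58) at 2 h and 10.95 to 11.58 (median 11.28) at 24 h. After IGF1 it rose by 0.58 ± 0.16.

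By list, the mitosis genes rose less with IGF1 than with E2 in 37 of 38 cases (median difference -1.45). The change of replication genes was lower with IGF1 than with E2 in 28 of 35 cases (-0.81), 23 of which rose with IGF1. The medians for E2 itself were 2.76 and 1.34. For cholesterol genes the change was lower with IGF1 in 17 of 18 cases (-1.59), of which 8 rose and 1 fell with IGF1. The change of ATF4 genes was lower with IGF1 than with E2 in 19 of 24 cases and higher in 2 (-1.25), and the list's median for E2 itself was 0.10. FOXO target genes were on the other side, IGF1 above E2 in 14 of 21 and below in 1 (0.55). For Fbxo32 and Klhl24 the change after E2 was 0.36 (adjusted p = 0.177) and 0.02 (adjusted p = 0.93).

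**Figure D4:**
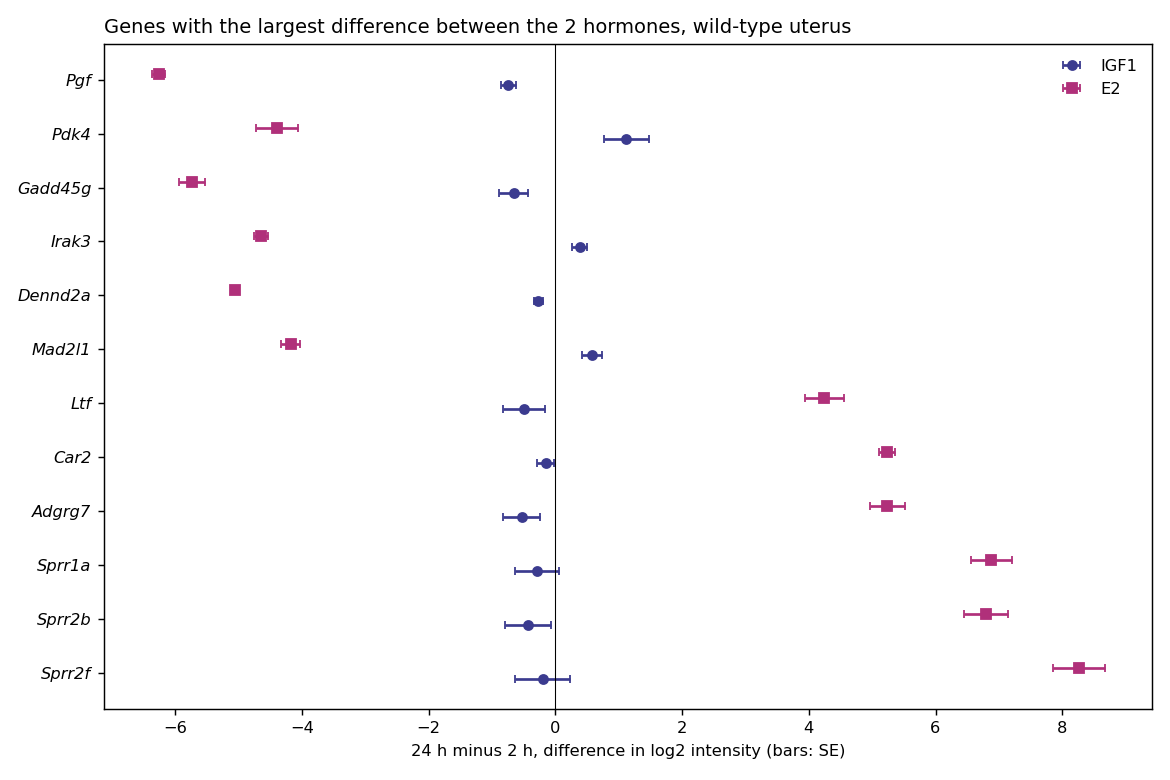
Difference in log2 intensity between 24 h and 2 h (horizontal axis, bars are the SE) after IGF1 (circles) and E2 (squares) in wild-type uterus, for the 12 genes with the largest difference between the hormones. Sprr2f differs by -8.47 at the bottom and Pgf by 5.52 at the top, and the IGF1 changes lie between -0.74 (Pgf) and 1.12 (Pdk4).

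In the knockouts the change after IGF1 was compared with that of the littermates, whose 11 arrays belong to the 16. Esr1 was lower on all knockout IGF1 arrays, 9.75 to 10.28 in Ex3aERKO against 11.62 to 12.38 in littermates, and 10.28 to 10.67 in ERaUtcKO against 11.71 to 12.31. From 2 h to 24 h, 4835 genes were called in Ex3aERKO (16%) and 9542 in ERaUtcKO (31.7%). The change differed from that of littermates for 34 genes in the Ex3aERKO experiment (0.113%), 19 higher in the knockout (0.063%) and 15 lower (0.0498%). In the ERaUtcKO experiment it differed for 104 genes (0.345%), 24 higher (0.0796%) and 80 lower (0.265%). With 2 or 3 arrays a group, these counts moved when 1 array was left out. The 34 became 11 without replicate 3 and 68 without replicate 2 of the littermates at 2 h, 12 without replicate 2 of the littermates at 24 h, 160 and 53 without replicates 1 and 2 of Ex3aERKO at 2 h, and 63 without replicate 2 of Ex3aERKO at 24 h. The 104 became 63 without replicate 1 of the littermates at 2 h, 55, 65 and 57 without replicates 1, 2 and 3 of the littermates at 24 h, 68 without replicate 1 of ERaUtcKO at 2 h and 69 without replicate 1 of ERaUtcKO at 24 h.

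The 6 genes with the largest positive difference in the Ex3aERKO experiment fell in littermates, and no fall was called for them in Ex3aERKO. Plet1 had 15.81, 16.45 and 16.61 at 2 h and 13.79, 13.39 and 13.76 at 24 h in the Ex3aERKO littermates, against 14.16 and 14.36 at 2 h and 13.80, 14.28 and 14.41 at 24 h in Ex3aERKO. The littermate times were far apart and the knockout times overlapped, and the changes differed by 2.55 ± 0.31 (adjusted p = 0.00158). The same direction held for Slc6a2, the noradrenaline transporter gene (2.59 ± 0.41), Dio2, which activates thyroid hormone (2.51 ± 0.40), Spon2, a matrix protein gene (2.20 ± 0.30), Aldh1a2, a retinoic acid synthase gene (2.11 ± 0.35), and Adamts1, a matrix protease gene (2.08 ± 0.34). For Slc6a2, Dio2, Aldh1a2 and Adamts1, every Ex3aERKO array at 24 h lay above those at 2 h, opposite to the littermates. These genes were picked for a positive difference, which favours this order. With 3 arrays against 2, the share of all genes without overlap was not counted, so the order is a description only. Aldh1a2, for example, had 8.69 and 8.84 at 2 h and 9.56, 9.52 and 9.70 at 24 h in Ex3aERKO. The Ex3aERKO times of Spon2 overlapped. Lower in the knockout were the changes of Ppargc1a, a coactivator of mitochondrial genes (-1.34 ± 0.22), Fst, the activin antagonist follistatin (-1.32 ± 0.23), Olfr457, an olfactory receptor gene (-1.07 ± 0.20), Fap, a protease of activated fibroblasts (-1.06 ± 0.20), Ankrd28 (-0.97 ± 0.16) and Arhgap29 (-0.92 ± 0.15).

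In ERaUtcKO, Sgms2, a sphingomyelin synthase gene, had 9.26, 9.12 and 9.32 at 2 h and 8.89, 8.70 and 8.64 at 24 h, against 12.50 and 12.48 at 2 h and 9.32, 9.34 and 9.38 at 24 h in littermates. Only the littermate arrays at 2 h stood high, and the changes differed by 2.66 ± 0.21 (adjusted p = 2.11e-07). Npl, a sialic acid lyase gene (2.45 ± 0.50), Gstm7, a glutathione transferase gene (2.35 ± 0.38), Slc6a14, an amino acid transporter gene (2.07 ± 0.20), Ccl28, a mucosal chemokine gene (1.93 ± 0.37), and Gcnt3, a mucin glycosyltransferase gene (1.79 ± 0.35), differed in the same direction. Thbs1 went further in the knockout, from 15.08, 14.995 and 15.26 at 2 h to 9.46, 9.07 and 9.91 at 24 h, where littermates had 12.35 and 13.62 at 2 h and 9.86, 10.38 and 9.71 at 24 h. The knockouts were above every littermate at 2 h, the groups overlapped at 24 h, and the changes differed by -2.63 ± 0.56 (adjusted p = 0.0336). S100a7a, a calcium-binding protein gene (-2.06 ± 0.29), Tas2r143 (-1.95 ± 0.37), Chac1 (-1.92 ± 0.23), Tas2r135 (-1.73 ± 0.36) and Egr2 (-1.59 ± 0.20) showed the same larger fall.

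**Figure D5:**
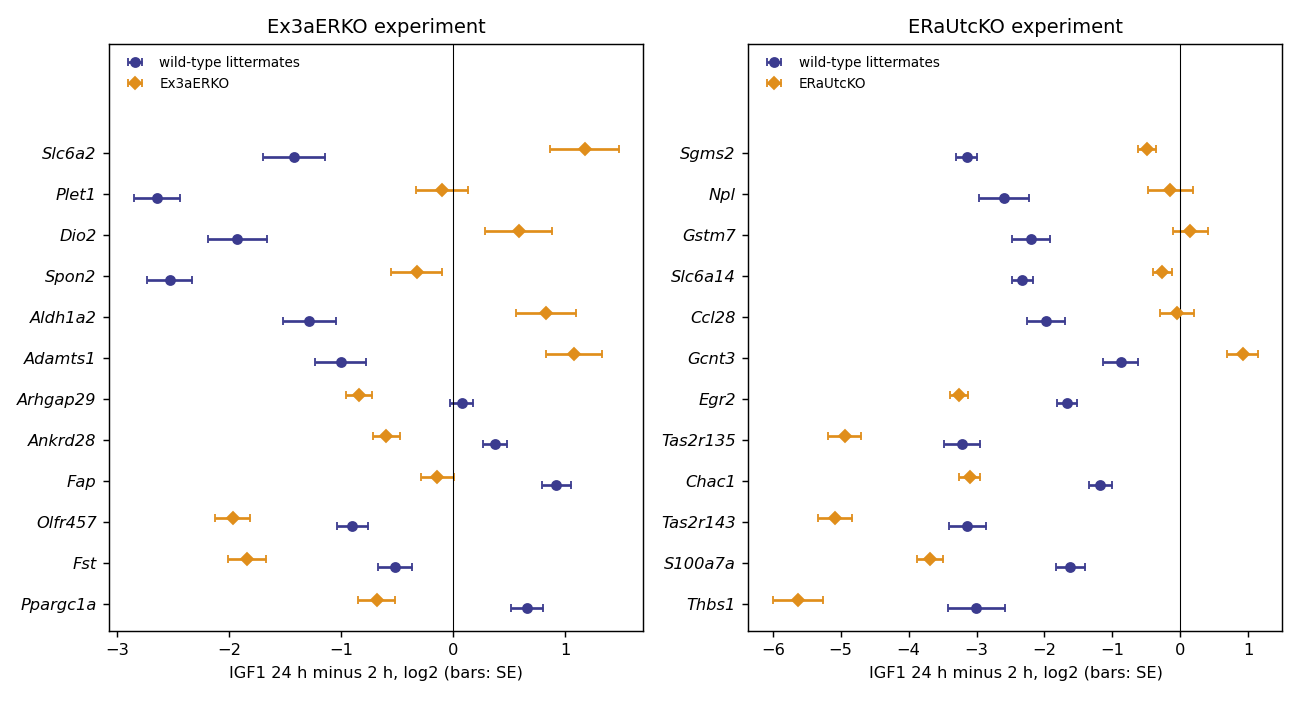
Difference in log2 intensity between IGF1 at 24 h and 2 h (horizontal axes, bars are the SE) in wild-type littermates (circles) and knockouts (diamonds), for the 6 genes of each sign with the largest difference between them, Ex3aERKO experiment on the left and ERaUtcKO experiment on the right. Plet1 is at -2.64 in littermates and -0.10 in Ex3aERKO, and Sgms2 at -3.14 in littermates and -0.49 in ERaUtcKO.

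By list, the comparison with littermates called few members. No mitosis, FOXO or ribosome biogenesis gene was called as different in either experiment. With 2 or 3 arrays a group, that does not show equal changes. The median difference for mitosis was -0.24 in Ex3aERKO, where members ran from -0.49 to 0.39. It was -0.89 in ERaUtcKO, where members ran from -1.90 to -0.19. Over all genes the medians were 0.015 in Ex3aERKO and 0.044 in ERaUtcKO. The members of a list rest on the same few arrays, so their estimates are not separate results. For ATF4 genes, 5 of 24 fell more in ERaUtcKO than in littermates (median -0.47) and none differed in Ex3aERKO (-0.09). Of the immediate-early genes, 1 of 25 differed in ERaUtcKO, Egr2, and none in Ex3aERKO, with medians of -0.50 and -0.01.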

How the data were processed

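Uterine RNA was hybridised to 68 Affymetrix arrays, and the authors deposited 1 table of log2 intensities for 72688 probe sets, and the labels used here do not state how they were normalized. Of these, 30604 probe sets had 1 gene symbol, which gave 30142 genes (for 355 with several probe sets the highest mean was kept). The 42 wild-type arrays were fitted with limma 3.58.1 (R 4.3.3), each treatment and each mouse set having its own term (residual degrees of freedom 35), and p-values were adjusted by Benjamini-Hochberg over all genes. Sets were fitted apart with 27 degrees of freedom, and the knockout experiments with 15 (Ex3aERKO) and 19 (ERaUtcKO). On simulated data 79.1%, 100% and 100% of genes changed by 0.5, 1 and 2 (log2) in this comparison were recovered over 30142 genes. The simulation changed only 67, 67 and 66 genes, with independent noise and equal changes in every set, and made 6 false calls. In the real data 10640 genes were called, so the recovery there can differ. The number of arrays limits the precision. The members and gene lists were chosen with earlier results of these data known. Named genes are the 15 largest called rises and falls of the same sign in each set, up to 3 of each sign per list (the 2 furthest moved where none was called), a fixed set of IGF, oestrogen and marker genes, and the 6 largest of each sign in other comparisons. Genes with a printed promoter were chosen for their motifs after their values were seen. Alternatives were other normalizations, filters, sample sets, a replicate block and each array left out.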

Additional observations from a re-analysis of the deposited data

Results flagged for a closer look

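For 4 genes, each taken alone, 1 of the 7 wild-type arrays at 2 h of IGF1 lay far from the others. The lowest value of Igf1 was 9.62, that of Lum 12.68 and that of Tnfrsf12a 9.59, and the highest of Tnnt2 was 11.30. In all 76 groups were examined, and chance marks about 5% of groups (1 in 20).

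The named genes were chosen in part for large changes or for differences that use the same littermate arrays. Their share in the next count is therefore no result about them. The change from 2 h to 24 h differed between the 3 wild-type sets for 957 of 30142 genes (3.17%) by the F test (limma, Benjamini-Hochberg). Of the 171 named genes these were 35, and their adjusted p-values were Adamts1 (0.0405), Aldh1l2 (0.0228), Ankrd28 (0.0498), Arntl (2.12e-05), Ccl2 (0.0113), Cdkn1a (0.0188), Chac1 (0.009), Ddx21 (0.00157), Dio2 (0.0335), Fbxo32 (0.00505), Fdps (0.00401), Gcnt3 (0.0122), H1f5 (0.0215), Hspa5 (0.00743), Hsph1 (0.0173), Idi1 (0.0147), Irs2 (0.00422), Kdr (0.00422), Mvk (0.0183), Nr4a1 (0.0423), Nsdhl (0.0385), Per3 (0.0114), Pfkfb3 (0.0244), Plvap (0.0191), Rb1 (0.0361), Sesn1 (0.00651), Slc6a14 (0.00414), Slc7a1 (0.0109), Spon2 (0.00021), Stc1 (0.00908), Txnip (0.0384), Vegfa (0.00743), Wdr43 (0.0281), Wnt4 (4.68e-06) and Wnt7a (0.0117).

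The change differed between knockouts and littermates for 34 genes in Ex3aERKO and for 104 in ERaUtcKO. The differences in log2 change, knockout minus littermates, were in the Ex3aERKO experiment Adamts1 (2.08), Aldh1a2 (2.11), Ankrd28 (-0.97), Arhgap29 (-0.92), Ccl2 (1.86), Dio2 (2.51), Fap (-1.06), Fst (-1.32), Nfil3 (1.03), Olfr457 (-1.07), Plet1 (2.55), Ppargc1a (-1.34), Slc6a2 (2.59), Spon2 (2.20). In the ERaUtcKO experiment they were Arhgap29 (-0.69), Ccl28 (1.93), Chac1 (-1.92), Egr2 (-1.59), Gcnt3 (1.79), Gstm7 (2.35), Mthfd2 (-1.26), Npl (2.45), S100a7a (-2.06), Sgms2 (2.66), Slc6a14 (2.07), Slc7a1 (-1.32), Stc2 (-0.88), Tas2r135 (-1.73), Tas2r143 (-1.95), Thbs1 (-2.63).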

How the results depend on the processing

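The count of 10640 genes ran from 10152 to 10681 when each IGF1 array was left out (higher 5799 to 6076, lower 4294 to 4654, at least 2-fold 866 to 971). Single sets were also refitted on their own arrays only, with fewer arrays. These counts differ from those given above, which used a mean for every group over all 42 wild-type arrays. In the refits 6931 genes were called in C57Bl6 (3845 higher), 6807 in the Ex3aERKO littermates (3759 higher, 3048 lower) and 6238 in the ERaUtcKO littermates (3907 higher, 2331 lower). Calls were higher at 24 h in 56.8% of cases, in 50.8% after quantile normalization and in 47.3% after centring on the median. Left-out arrays moved the knockout counts from 11 to 160 in Ex3aERKO (higher 9 to 98, lower 2 to 62) and from 55 to 124 in ERaUtcKO (higher 9 to 44, lower 32 to 85). The sign of the change turned for Txnip in C57Bl6 alone (-0.90), for Igf1r in the Ex3aERKO littermates alone (0.033), and for Insig1 (0.071), Irs2 (-0.040), Smtn (0.093) and Wnt7a (0.30) in the ERaUtcKO littermates alone, and the cause was not tested. Cidec turned to 0.055 with the adipocyte marker level as a covariate, chosen after seeing the data. With the replicate number as a block on the 16 IGF1 arrays, 8660 genes were called, 8327 of them shared, but 7 same-numbered pairs correlated at -0.513 to 0.0824, so the samples share only a number. Signal near the antigenomic controls limits dim genes.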
